A study of Mus musculus with 4 samples.

Results

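A group of 10 genes that mark or build early blood and vessels is described here by the listed MIXL1 peaks around them: Kdr, Cdh5 and Pecam1, which encode endothelial surface proteins, and Etv2, Tal1, Lmo2, Gata2, Fli1, Runx1 and Gfi1b, which encode transcriptional regulators. They were chosen by name, and the RefSeq table of protein-coding genes held all 10 of them among 21519 genes. The peaks taken were those within 100 kb of each gene's span, which numbered 19 of the 9403 peaks on the assembled chromosomes. The 10 windows did not share a peak.

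MIXL1 is a homeodomain protein of the paired type, made in the primitive streak. It carried a FLAG tag in these cells and was precipitated with the anti-FLAG M2 antibody. The cells were epiblast stem cells of the mouse, pluripotent cells in culture that resemble the post-implantation epiblast, with an inducible Mixl1 gene. Per the labels' protocols they were kept with activin A (20 ng/mL) and bFGF (10 ng/mL) on feeder layers of irradiated fibroblasts, and then formed embryoid bodies in serum for 2 days. All 4 libraries, 2 from the FLAG precipitation and 2 of input chromatin, came from cells given 1 µg/mL doxycycline for the last 24 h, so every library is from induced cells, and uninduced cells were not analysed here. The genotype of the endogenous Mixl1 gene and the number of cell clones are not stated in the sources used here, and markers of the cell type could not be checked, since RNA was not measured. A single list of peaks stands for all the libraries. It holds the position of each peak but no height, so the sequencing depth is unknown, strong and weak peaks cannot be told apart, and no value has an error between replicates.

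Blood and endothelium arise together from mesoderm that leaves the primitive streak and switches on Kdr, the receptor for vascular endothelial growth factor. ETV2, an ETS-family factor, acts at the top of this step, and TAL1, LMO2 and GATA2 then form complexes with E-protein and LDB1 partners on shared enhancers together with the ETS factor FLI1. RUNX1 drives the passage from endothelium to blood, during which GFI1B helps to silence endothelial genes. Mixl1 is itself expressed in the streak and has been linked to the making of haematopoietic mesoderm from embryonic stem cells.

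The blood and endothelial regulators fell into 3 kinds by these peaks. Runx1, Fli1 and Pecam1 had peaks overlapping the gene itself. Cdh5, Etv2, Gata2, Lmo2 and Kdr had peaks outside the gene at 7.18 to 35.2 kb, and Tal1 and Gfi1b had no listed peak within 300 kb. In all, 8 of the 10 genes had a peak within 100 kb, and the share over all protein-coding genes was 52.8%. Of the 10, 3 had a peak overlapping the span (12.6% of all genes), and 5 had a peak within 10 kb (19.1%). Within 50 kb the number was 8, beside 37.5% of all genes, and it stayed at 8 within 250 kb, where the share of all genes was 75.5%. The median distance from gene to nearest peak was 13.7 kb for the 10 regulators and 89.3 kb for all protein-coding genes. No test was made of these counts, because 10 genes picked by name are not a sample and their results in these data were known.

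**Figure D1:**
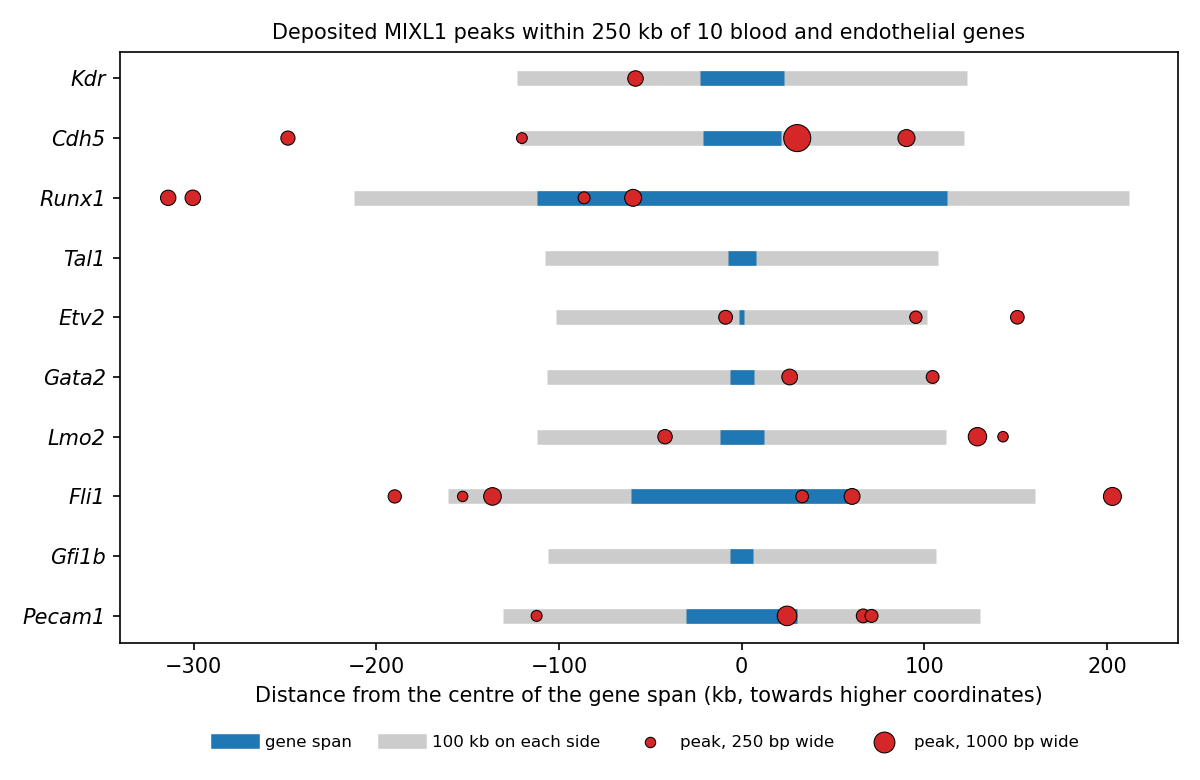
Peaks around each of the 10 genes, drawn by distance in kb from the centre of the gene span towards higher coordinates. Blue bars are gene spans, grey bars the 100 kb on either side, and red circles are peaks within 250 kb, with area in proportion to peak width. Runx1, Fli1 and Pecam1 carry circles on the blue bar, and Tal1 and Gfi1b have none.

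Sequence was read from RefSeq promoter windows of GRCm38.p6 (the mm10 assembly), which run from 250 bases before a gene start to 50 bases after it. Of the 10 regulators, 6 (Kdr, Runx1, Tal1, Etv2, Gata2 and Gfi1b) matched 9 windows, and 0 of the 9 overlapped a peak. Over all genes 453 of 32619 windows did (1.39%). Cdh5, Lmo2, Fli1 and Pecam1 had no window, so whether a peak lies at their starts was not read. The peaks near Etv2 and Pecam1 did overlap 2 promoter windows, but those of the neighbours Cox6b1, a subunit gene of cytochrome c oxidase, and Milr1, a receptor gene of mast cells. The peak covered all 300 bases of the Cox6b1 window and 223 of the 300 of the Milr1 window. These 2 windows are shown with the windows of Etv2 and Kdr, which lay outside peaks. Capitals mark TAAT and its reverse complement ATTA, the core that homeodomains of this class bind. Each is written 5′ to 3′ on the strand of its gene.
Cox6b1, chr7:30626065-30626364, minus strand, all in a peak: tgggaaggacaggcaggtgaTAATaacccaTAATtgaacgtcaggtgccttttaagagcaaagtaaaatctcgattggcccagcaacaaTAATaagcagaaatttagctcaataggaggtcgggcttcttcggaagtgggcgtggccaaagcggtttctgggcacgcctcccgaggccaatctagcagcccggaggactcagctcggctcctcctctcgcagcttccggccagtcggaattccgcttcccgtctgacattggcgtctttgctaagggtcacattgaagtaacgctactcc
Milr1, chr11:106750976-106751275, plus strand, partly in a peak: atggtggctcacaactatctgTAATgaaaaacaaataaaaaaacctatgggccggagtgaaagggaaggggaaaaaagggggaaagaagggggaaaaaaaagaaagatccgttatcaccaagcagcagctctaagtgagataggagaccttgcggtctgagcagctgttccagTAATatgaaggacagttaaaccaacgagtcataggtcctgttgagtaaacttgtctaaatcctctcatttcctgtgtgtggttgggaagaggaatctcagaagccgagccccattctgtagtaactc
Etv2, chr7:30635803-30636102, minus strand, nearest peak at 9.37 kb: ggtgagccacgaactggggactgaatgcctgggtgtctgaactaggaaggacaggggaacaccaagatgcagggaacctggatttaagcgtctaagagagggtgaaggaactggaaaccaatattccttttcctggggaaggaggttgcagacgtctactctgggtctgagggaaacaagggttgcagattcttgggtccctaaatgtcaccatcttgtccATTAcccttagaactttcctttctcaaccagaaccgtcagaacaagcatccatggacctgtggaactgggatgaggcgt
Kdr, chr5:75978406-75978705, minus strand, nearest peak at 80.7 kb: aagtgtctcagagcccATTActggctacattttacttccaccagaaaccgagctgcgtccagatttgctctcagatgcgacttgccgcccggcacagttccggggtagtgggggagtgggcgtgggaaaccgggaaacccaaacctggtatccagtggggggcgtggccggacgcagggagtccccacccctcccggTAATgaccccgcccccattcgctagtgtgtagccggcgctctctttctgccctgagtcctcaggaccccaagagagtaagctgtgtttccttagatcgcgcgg

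The Cox6b1 window held 3 matches to TAAT or ATTA, all within the peak, and the Milr1 window held 2, of which 1 was within the peak. The windows outside peaks held 1 (Etv2) and 2 (Kdr). At least 1 match was found in 58.0% of all promoter windows and in 72.6% of those overlapping a peak. The median content of G and C was 53% in all windows and 51.7% in those overlapping a peak, and its part in this difference was not tested. The 9 windows of the regulators contained a match in 5 cases, with 0 in both Gata2 windows, which are 69.3% and 73.7% G and C. The spaced pairs TAATNNNATTA and TAATNNATTA, to which paired-type homeodomains bind as dimers, read the same on both strands. They were present in 0.491% and 0.386% of all windows, in 1.99% and 0.662% of those overlapping a peak, and in 0 of the 9. A match shows only that the letters are there.

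Among the surface proteins, Kdr (chromosome 5, 75932827 to 75979072) had a single peak, 553 bp wide, at 75897108 to 75897660. It lay 35.2 kb beyond the 3′ end of the gene and 81.1 kb downstream of the listed start. No other protein-coding gene was nearer to it, and the next peak of the list was 511 kb away. Within 1000 kb of Kdr there were 3 peaks in all. This was the most isolated of the 19 peaks, and 31.7% of protein-coding genes had a peak as near as Kdr or nearer.

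Cdh5 encodes VE-cadherin, the adhesion protein of endothelial junctions. Its span (chromosome 8, 104101613 to 104144504) had 3 peaks within 100 kb. The nearest, at 104152603 to 104154286, lay 8.10 kb above the higher end of the gene and was 1684 bp wide, wider than all other peaks near the regulators and at the 97.2 percentile of the whole list by width. No gene of any type in the table overlapped it, and Cdh5 was the nearest protein-coding gene. The second, at 104212938 to 104213606, lay 68.4 kb away inside the neighbouring gene Bean1. The third, of 270 bp at 104002546 to 104002815, lay 98.8 kb below the gene and is inside the 100 kb limit by a small margin.

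Pecam1, the gene of the platelet and endothelial adhesion protein CD31 (chromosome 11, 106654213 to 106715281), had 4 peaks. One of 882 bp, at 106709127 to 106710008, was inside the gene, with its centre 5.71 kb from the higher end of the span. A pair within the span of Milr1, at 106751053 to 106751491 and 106755628 to 106756014, lay 35.8 and 40.3 kb from Pecam1 and 4.14 kb from each other, and the first of them overlaps the listed Milr1 start and part of the promoter window printed above. The fourth was inside Tex2 at 81.6 kb. Pecam1 thus shared its window with 5 other protein-coding genes, and 3 of its 4 peaks overlapped one of them.

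Of the factors at the start of the haemato-endothelial programme, Etv2 (chromosome 7, 30633616 to 30636509) had 2 peaks within 100 kb, neither of them nearest to Etv2. The nearer, at 30625998 to 30626437, lay 7.18 kb from the gene on its 3′ side and overlapped the start of Cox6b1. The other lay inside Gapdhs at 93.7 kb. The Etv2 window held 18 other protein-coding genes, more than any other of the 10 windows, the next holding 6. Etv2 is therefore close to a peak in distance, while that peak covers the listed start of another gene.

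Tal1, the bHLH gene also known as Scl (chromosome 4, 115056426 to 115071755), had 0 peaks within 250 kb. Its nearest peak, at 115372100 to 115372410, was 300.3 kb away, and its nearest protein-coding gene was Cyp4a12b. A peak was as near or nearer in 79.5% of protein-coding genes, and on chromosome 4 a peak lay within 100 kb of 59.6% of them. Lmo2, whose LIM-domain protein bridges TAL1 and GATA factors (chromosome 2, 103957903 to 103981878), had 1 peak within 100 kb. This peak of 479 bp at 103927650 to 103928128 lay 29.8 kb below the gene, overlapping no gene of any type in the table, with Lmo2 as the nearest protein-coding gene. A further pair lay just outside the limit, inside Cd59a, at 116.7 and 131 kb.

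Gata2, a zinc-finger gene of blood stem cells and endothelium (chromosome 6, 88193891 to 88207032), had 2 peaks, both on the 3′ side. The nearer, of 571 bp at 88226432 to 88227002, lay 19.4 kb beyond the gene and 32.8 and 28.1 kb downstream of its listed starts, but Dnajb8 was nearer to it, at 3.18 kb. The other lay 97.8 kb away inside Eefsec. Neither peak was on the 5′ side of Gata2.

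Fli1 (chromosome 9, 32422204 to 32543432) had 4 peaks within 100 kb and 2 inside the gene. The peak at 32542945 to 32543525 overlapped the higher end of the span, with its centre 0.197 kb inside it. It is the sole peak of the 19 that reached an end of a regulator's gene. The promoter windows above do not cover Fli1, so its strand was not read, and this end may be the gene's start. The peak at 32515734 to 32516098 was inside the gene, 27.5 kb from that end. The remaining pair lay at 75.5 and 92.1 kb, next to and inside the potassium channel gene Kcnj5. The peak at the Fli1 end was also within 100 kb of Ets1, the neighbouring ETS-family gene, and is counted for both below.

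Of the regulators that act later, Runx1 (chromosome 16, 92601466 to 92826074) had 2 peaks, both inside the gene, which spans 225 kb and is the longest of the 10. They lay at 92627276 to 92627602 and 92653963 to 92654626. RefSeq lists 2 starts on the minus strand. In that order, the peaks were 198.6 and 171.8 kb downstream of the distal start and 69.9 and 43.0 kb downstream of the proximal start. Both thus lay towards the 3′ part of the gene and neither near a start. No peak lay within 100 kb outside the gene. Gfi1b, the gene of a zinc-finger repressor (chromosome 2, 28609450 to 28621982), had 0 peaks within 250 kb. Its nearest, at 28923839 to 28924247, was 301.9 kb away and 5.86 kb from the homeobox gene Barhl1. Within 500 kb there were 8 peaks around Gfi1b and 1 around Tal1, so the surroundings of these 2 genes differed in peak number.

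**Figure D2:**
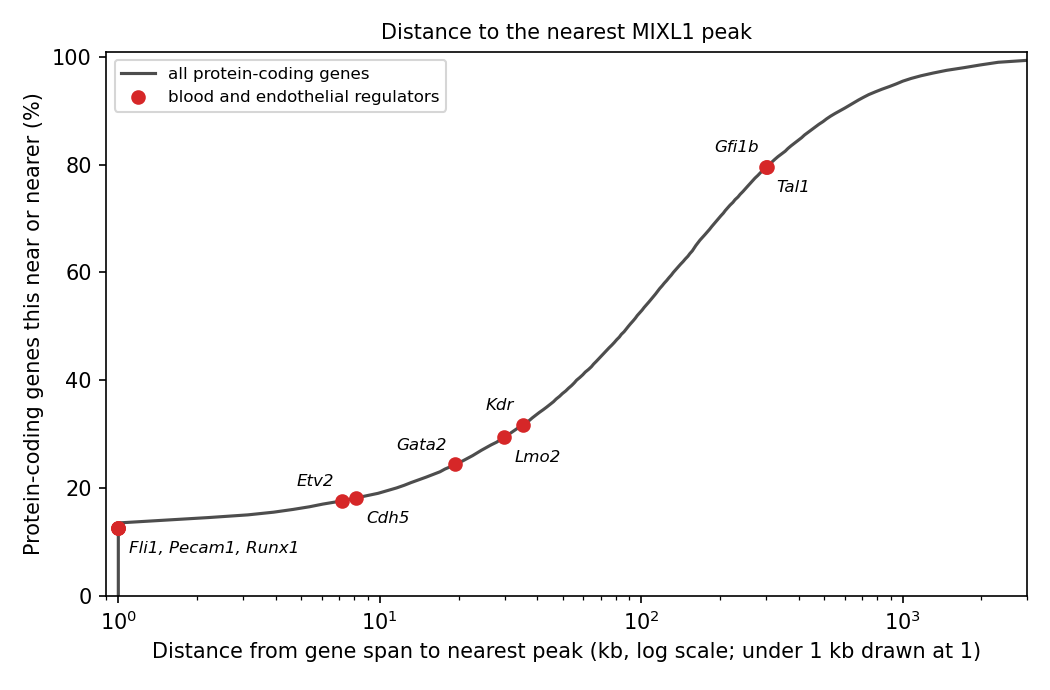
Share of all 21519 protein-coding genes (vertical axis, percent) whose nearest peak is at or within the distance on the horizontal log axis (kb, under 1 kb drawn at 1). Red points are the 10 genes: Runx1, Fli1 and Pecam1 stand at 12.6%, Etv2, Cdh5, Gata2, Lmo2 and Kdr between 17.6% and 31.7%, and Tal1 and Gfi1b at 79.5% and 79.6%.

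The 19 peaks were spread over genes in different ways. Inside a regulator were 5 (Runx1 and Fli1 with 2 each and Pecam1 with 1), 8 overlapped another protein-coding gene, and 6 lay outside all protein-coding genes. Of those 6, Kdr, Cdh5 and Lmo2 were the nearest gene of 4, and another gene was nearest to 2. In all, 9 of the 19 peaks had the regulator as their nearest protein-coding gene, and this held for at least 1 peak of 6 regulators: Kdr, Cdh5, Runx1, Lmo2, Fli1 and Pecam1. The matching shares over all peaks and all genes were not computed, so whether these counts are high or ordinary is not known. The median width of the 19 peaks was 440 bp and that of all 9403 peaks was 485 bp, and 8 of the 19 were wider than the median of the whole list.

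Counts near single genes were small. Fli1 and Pecam1 had 4 peaks each, a number that 7.11% of protein-coding genes reach or pass. The mean density of chromosome 9 would place 1.30 peaks in the window of Fli1, and that of chromosome 11 would place 1.30 in the window of Pecam1, and the 95% exact Poisson interval of a count of 4 is 1.09 to 10.2. Cdh5 had 3 peaks (interval 0.619 to 8.77) where the density of chromosome 8 gives 0.767. Over the 10 windows the count was 19 and the sum at chromosome density was 8.83. By another measure, 10 genes at the mean count of all protein-coding genes would have 11.7 peaks, or 12.5 at the mean counts of genes in the same length bands (under 20 kb, 20 to 100 kb and longer). Above their own chromosome's number were 8 genes. The interval held that number for each of the 10. With so few peaks the intervals are wide (0 to 3.69 for the 0 peaks of Tal1), so they could hardly leave it out, and no conclusion is drawn. These intervals cover counting error only and treat peaks as independent, which neighbouring peaks need not be. None of the 10 genes is on chromosome 12 or X, whose peak densities stand far from those of the other chromosomes.

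**Figure D3:**
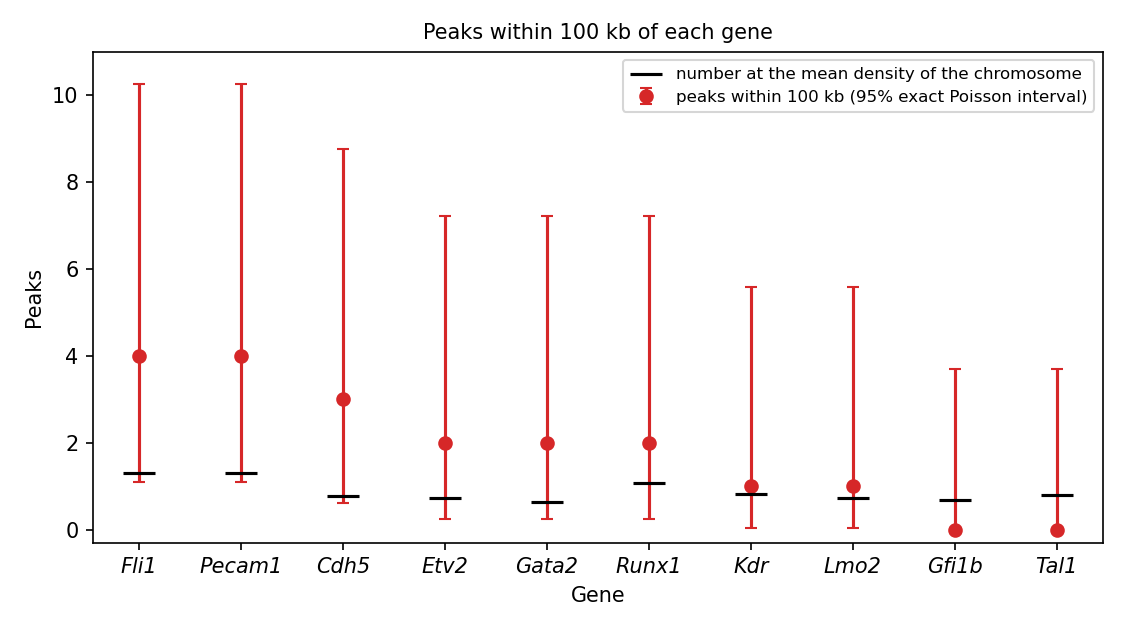
Peaks within 100 kb of each gene (red points, vertical axis in peaks) with 95% exact Poisson intervals, and the number that the mean peak density of its chromosome gives for a window of that length (black dashes). Fli1 and Pecam1 reach 4, Tal1 and Gfi1b 0, and every interval spans its dash.

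Gene length moves with these counts. Peaks lay within 100 kb of 47.9% of protein-coding genes under 20 kb long, 56.1% of those of 20 to 100 kb and 66.3% of longer ones. Of the regulators under 20 kb, Etv2 and Gata2 had such a peak and Tal1 and Gfi1b did not. All 4 of 20 to 100 kb (Kdr, Cdh5, Lmo2 and Pecam1) and both longer ones (Runx1 and Fli1) had one. A peak overlapping the span was found in 46.9% of genes of 100 kb or more, the band of Runx1 and Fli1, and in 14.7% of those of 20 to 100 kb. Peaks at an end of the span, as seen at Fli1, were not counted apart from those further inside. The median span was 33.4 kb for the 10 regulators and 17.4 kb for all genes, and the part of length in the difference of medians was not tested.

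Another 61 genes of the same pathways were described in the same way, in lists of endothelial surface and signalling genes, haemato-endothelial transcription factors, and blood regulators and products. Together 37 of the 61 had a peak within 100 kb (60.7%, beside 52.8% of all genes), with a median distance of 46.3 kb (89.3 kb for all genes). The transcription factors gave 12 of 18 (median distance 27.4 kb), the endothelial genes 15 of 23 (46.3 kb) and the blood genes 10 of 20 (110.4 kb). Peaks overlapping the gene were found in 5 of the 18, 6 of the 23 and 0 of the 20, beside 12.6% of all genes. For overlap the blood genes were thus below the share of all genes, and their median distance was longer. Over all protein-coding genes the overlap share was 4.06% under 20 kb and 46.9% at 100 kb or more. The median span was 16.7 kb for the blood genes and 17.4 kb for all genes. The part of length in the overlap count was not tested. The blood genes were near the share of all genes within 100 kb (10 of 20, beside 52.8%) and within 10 kb (4 of 20, beside 19.1%), and above it within 50 kb (9 of 20, beside 37.5%) and 250 kb (18 of 20, beside 75.5%). No difference between lists was tested.

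Of the endothelial genes, Vwf, which encodes von Willebrand factor, had 6 peaks with 2 overlapping the gene, and the angiopoietin gene Angpt2 had 4 with 2 overlapping. Acvrl1, which encodes the endothelial receptor ALK1, had 4 with the nearest at 46.3 kb. The semaphorin and VEGF co-receptor gene Nrp1 had 3 with 1 overlapping, and the junction gene Esam had 3 with the nearest at 34.8 kb. Angpt1, which spans 252 kb, was the farthest at 410.1 kb. Of the transcription factors, Meis1, a homeobox gene of blood progenitors, had 3 peaks with 1 overlapping the gene, and Tal2 had 3 with the nearest at 3.35 kb. Ets1, Prdm16, Mecom and Lmo4 had 2 each and at least 1 overlapping. Nr2f2 and Hey1 also had 2 each, but outside the gene, with the nearest at 0.996 and 18.1 kb, and Lyl1 was the farthest at 229.8 kb. Of the blood genes, the lymphoid factor gene Ikzf1 had 5 peaks with the nearest at 49.4 kb. Myb, needed for definitive blood, had 4 with the nearest at 5.88 kb, the erythroid factor gene Klf1 had 3 at 41.8 kb or more, and Nfe2 had 2 with the nearest at 7.04 kb. The embryonic globin gene Hba-x had 1 at 2.76 kb, and Gfi1 was the farthest at 460.6 kb. Of the 61 genes, 41 matched 54 promoter windows, and 0 of the 54 overlapped a peak, beside 1.39% of all promoter windows. With so low a share, 0 among so few windows does not set these genes apart.

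**Figure D4:**
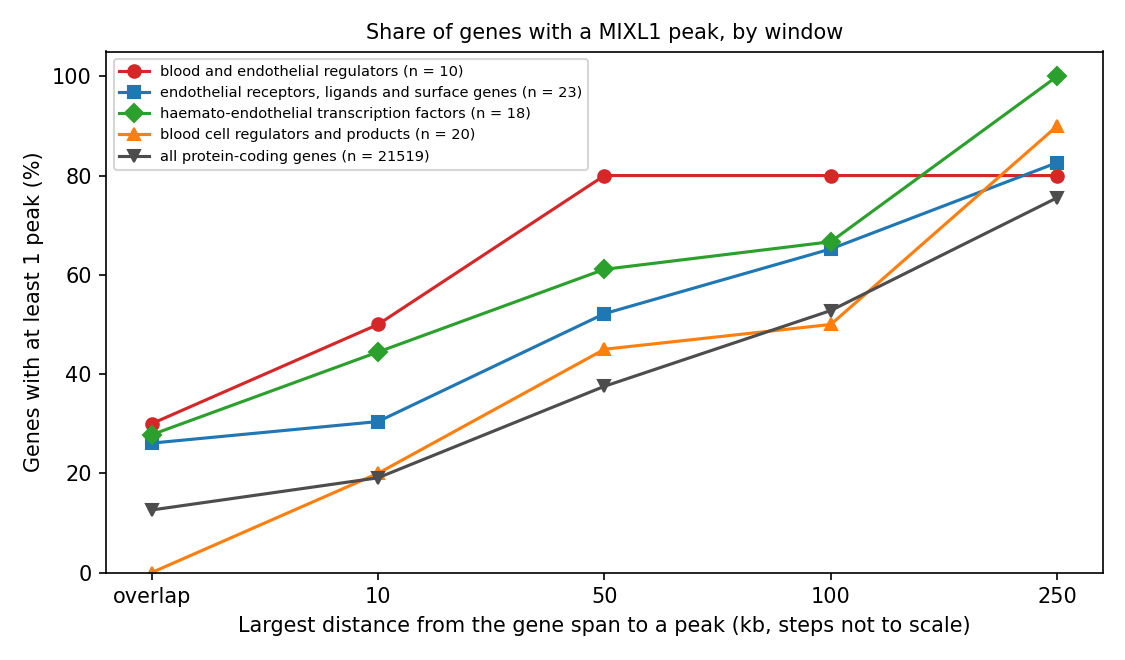
Share of genes with at least 1 peak (vertical axis, percent) that overlaps the span or lies within 10, 50, 100 or 250 kb of it (horizontal axis, steps not to scale), for the 10 blood and endothelial regulators, the 3 lists of other pathway genes and all protein-coding genes. The regulators stay at 8 of 10 from 50 kb on, while all genes rise from 37.5% at 50 kb to 75.5% at 250 kb.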

How the data were processed

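The authors deposited 1 list of peak positions for the whole series. Its 2 value columns are the start and end of each peak in bp, with no score, per the file itself. The submitters' processing notes name CASAVA 1.8.2, Bowtie2, SAMtools and MACS2, and the build mm10. How peaks were filtered, how inputs were used and whether replicates were pooled is not given in the sources used here. Peaks on other contigs (195) were left out. Positions are 1-based. Genes came from the RefSeq table of GRCm38.p6 (protein-coding, chromosomes 1 to 19 and X, starting above 3 Mb). That table has no strand, so strand and starts were taken from the promoter windows. Distance is the number of bases between a peak and a gene span, 0 where they share a base, and a peak within 100 kb counts. Numbers at chromosome density multiply the window by the chromosome's peaks per Mb, with length taken from 3 Mb to the last gene end. The distance code was checked on placed peaks and against bedtools. Python 3.11.15, numpy 2.4.6, pandas 2.3.3, scipy 1.17.1 and matplotlib 3.10.9 were used. Members and lists were chosen with earlier results of these data known. All 10 members are described. Of each list of other genes, the text names the 5 with the most peaks within 100 kb, ties going to the nearer peak, and the farthest from a peak. Of the transcription factors 4 tied on both, and all were named, with Nr2f2 and Hey1 added after their values were seen. The alternatives changed the window, the peaks, the overlap and the background genes.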

Additional observations from a re-analysis of the deposited data

How the results depend on the processing

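The number of regulators with a peak was 8 with windows of 50, 100 and 250 kb, by peak centre and with at least 50% of the peak in the window. It was 5 with the 10 kb window, and 6 with the wider 50% of the peaks, where Etv2 and Lmo2 had none. When a peak counted for its nearest protein-coding gene alone it was 6, and Etv2 and Gata2 had none. For that last setting the share of all genes was not computed. The 19 peaks became 7 within 10 kb, 12 within 50 kb and 8 with the wider 50% of the peaks. The median distance of the regulators was 14.3 kb to peak centres and 27.3 kb with the wider 50% of the peaks. Of the other pathway genes, 19 of 61 had a peak within 10 kb. The share of all protein-coding genes was 19.1% within 10 kb, 37.5% within 50 kb, 75.5% within 250 kb and 32.2% with the wider 50% of the peaks, and it was 49.1% with genes of every type and 53.4% without chromosomes 12 and X. Measured from the gene start, the 6 regulators with a listed start had a median distance of 61.8 kb, against 27.3 kb from the span, and 4 of them had a peak within 100 kb either way. No paired analysis was possible because the list of peaks names no replicate. Depth and peak strength are unknown, so a gene without a listed peak may hold binding below the authors' threshold.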

Other observations

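Values are given side by side for relatives of the regulators, picked after their values were seen. Tal1 had its nearest peak at 300.3 kb and its close relative Lyl1 at 229.8 kb, while Tal2 had 3 peaks within 100 kb and the nearest at 3.35 kb. Gfi1b and its paralogue Gfi1 both had 0 peaks within 250 kb, with the nearest at 301.9 and 460.6 kb. Lmo2 had 1 peak within 100 kb, at 29.8 kb, and Lmo4 had 2, of which 1 overlapped the gene. Gata2 had 2 and Gata1, on chromosome X where peaks are sparse, had 0, with the nearest at 237.1 kb.

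In the ETS family, Fli1 and Ets1 lie side by side and both had a peak inside the gene. Erg, which spans 227 kb, had 1 peak within 100 kb, at 36.6 kb, and no peak overlapped it. Of all protein-coding genes of 100 kb or more, 46.9% had an overlapping peak. Of the VEGF receptor genes, Kdr had 1 peak within 100 kb, Flt4 had 1 at 85.9 kb, and Flt1, which spans 165 kb, had its nearest at 343.6 kb. Kit, which lies near Kdr on chromosome 5, had its nearest peak at 188.9 kb.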
